A study of Mus musculus with 8 samples.

Results

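The genes described here are 42 named mouse genes of the DNA damage response and of DNA repair, out of 29955 gene names listed per library. They were chosen by name and by role, with no threshold on a measured value, and all 42 were found and passed the filter on low values in every comparison. They fall into 9 roles: sensor and checkpoint kinases, mediators on chromatin at breaks, the MRN complex, homologous recombination, non-homologous end joining, mismatch repair, base excision and single-strand break repair, crosslink repair, and RecQ helicases. RNA-seq had been run on bone marrow cells of WT and Ripk3-/- mice, sorted as lineage-negative cells with Kit and Sca1 (LSK, which hold the HSPCs) or with Kit but without Sca1 (LK, which hold the myeloid progenitors, MPs). Each population was sequenced in both genotypes, with 2 libraries per group and 4 groups in all.

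Ripk3 encodes a kinase of the necroptosis pathway, and the study asked how its loss changes blood stem and progenitor cells under stress. The strain is entered in the labels as CD57BL6/J for all groups, and no age is given there. The Ripk3-/- mice were kept as a line on a C57BL/6J background and the WT mice were bought from a supplier, so genotype and colony cannot be told apart. According to the study's text, mice of both genotypes had received repeated X-ray doses and the cells were taken a month after the last dose, whereas the deposited labels state that the mice were untreated. Unirradiated and irradiated groups were therefore not compared, and the labels do not settle whether all 4 groups share an irradiation. Nothing states how many mice stand behind a library or that libraries came from separate mice, so p-values measure only the spread between these libraries, which may be technical. Xist had a signal of 108 to 413 in the WT libraries and of 0 to 1.27 in the Ripk3-/- libraries. The Y-linked genes Eif2s3y (47.0 to 98.8) and Uty (16.8 to 31.6) were read in every Ripk3-/- library and in no WT library. Kdm5d, also Y-linked, was low in Ripk3-/- libraries (0.124 to 4.89) and at 0 in WT, and Ddx3y was at 0 in all 8. Genotype and sex therefore cannot be told apart.

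Cells detect a double-strand break through the MRN complex and the kinases Atm and Atr, which mark chromatin with phosphorylated H2ax, call in mediators such as Mdc1 and Trp53bp1, and halt the cell cycle through Chek1 and Chek2. The break is then joined directly, by the Ku and ligase proteins of non-homologous end joining, or copied from the sister chromatid by homologous recombination, which needs a replicated template. Damaged bases, single-strand breaks, mismatches and crosslinks have pathways of their own, and blood stem cells, which divide rarely, are known to lean on end joining more than cycling progenitors do.

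Recovered reads per library ran from 9782166 to 16280811. The deposited values, called signal here, are reads scaled to library size, are not divided by gene length, and were scaled separately for LSK and for LK. Ripk3 signal was 162 and 168 in WT LSK, 3.38 and 1.08 in Ripk3-/- LSK, 144 and 150 in WT LK, and 16.2 and 10.6 in Ripk3-/- LK. It was low in each library labelled Ripk3-/-. Ly6a, which encodes Sca1, had a signal of 141 to 237 in the LSK and 0.124 to 4.12 in the LK libraries, and Kit was read in all 8. Kit signal moved with genotype, at 223, 298, 253 and 237 in the WT libraries (LSK, then LK) and 464, 355, 328 and 321 in the Ripk3-/- libraries, with an averaged log2 fold change of 0.53 (adjusted p = 0.0409 by limma and 0.069 by edgeR). A list of 10 neutrophil granule markers moved with genotype: its summed signal was 717 and 770.3 in WT LSK against 2389 and 2815 in Ripk3-/- LSK, and 788 and 791 in WT LK against 1709 and 1710.5 in Ripk3-/- LK. Of these 10 markers 8 rose in LSK and 5 in LK, and none was at 0 in both libraries of a group. Of 8 erythroid markers tested in LSK, Gata1 alone passed limma, lower by a log2 fold change of −1.32 (adjusted p = 0.0128), and 0 of 9 passed in LK, with 2 at an unadjusted p under 0.05 (edgeR also called 0). The list's summed signal was 246 and 194 in WT LSK against 192 and 186 in Ripk3-/- LSK, and 1629 and 1433 in WT LK against 1071 and 1121 in Ripk3-/- LK. The part of Kit and of both marker lists in the genotype results was not tested. In sorted bulk cells, fewer cells of a type and less RNA per cell cannot be told apart.

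Loss of Ripk3 was accompanied by a called change in 1 of the 42 genes in LSK-HSPCs and in none in LK-MPs. Apex1, the endonuclease that cuts the DNA backbone at sites left by a removed base, was 2.78-fold higher in Ripk3-/- LSK cells than in WT LSK cells. The other 41 genes, among them all 4 sensor and checkpoint kinases, all 3 MRN subunits and all 6 end joining genes, did not pass the test in LSK cells. Over all 16817 genes tested in LSK cells, 2.16% were called, 0.892% as higher, so 1 of 42 is near the background share and is not a result about the genes as a group. Limma was fitted to log2(signal + 1) over all genes and a call was an adjusted p (Benjamini-Hochberg) under 0.05.

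Apex1 signal was 21.1 and 24.2 in the WT LSK libraries and 67.3 and 61.9 in the Ripk3-/- LSK libraries, behind which stood 212, 234, 837 and 633 reads. In LK cells it was 25.8 and 22.7 in WT and 20.8 and 25.2 in Ripk3-/-. Both Ripk3-/- LSK libraries lay above the other 6, and the WT and Ripk3-/- LK libraries overlapped. The log2 fold change in LSK cells was 1.47 ± 0.32 (SE, n = 2 and 2; 95% interval 0.82 to 2.13), with a limma adjusted p of 0.0145 and an edgeR quasi-likelihood adjusted p of 0.0252. By edgeR 1.41% of all genes were called and by DESeq2 3.65%, and Apex1 was again the 1 gene of the 42. In LK cells the log2 fold change was −0.08 ± 0.32 (limma adjusted p = 0.983). The difference of these effects, LSK minus LK, was 1.55 ± 0.45 and had a limma adjusted p of 0.21, so the change was not shown to differ between the populations. With any 1 of the 4 LSK libraries left out the Apex1 fold change stayed between 1.38 and 1.57 on the log2 scale, and its adjusted p then ran from 0.0655 to 0.105 and passed in none of those 4 fits. It also missed the threshold without the mean-variance trend.

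Apex1 lies on chromosome 14 (chr14:50924968-50927139, + strand, GRCm38 with GENCODE M21), 4.86 Mb from Ripk3 (chr14:55784995-55788865, − strand), the gene that was targeted. Parp2, a poly(ADP-ribose) polymerase of single-strand break repair, is the other of the 2 genes on this chromosome, 4.96 Mb from Ripk3. Its signal was 135 and 117 in WT LSK and 164 and 129 in Ripk3-/- LSK. These libraries overlapped, and the log2 fold change was 0.21 ± 0.20 (limma adjusted p = 0.615). Within 5 Mb of Ripk3, 116 genes were tested in LSK cells and 5 (4.31%) were called, namely Apex1, Cma1, Psmb5, Ripk3 and Slc7a8, against 2.16% of all genes. This share counts Ripk3, the targeted gene, and Apex1 itself. Within 10 Mb, 6 of 173 genes (3.47%) were called. The part of chromosomal position in the Apex1 change was not tested.

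Of the exonic bases of Apex1, 61.7% also belong to Pip4p1 on the opposite strand, which is listed under its older name Tmem55b. The library kit marks strand, but the strand setting of the counting is not given in the sources used here, so reads of the overlap may be split between these genes. Tmem55b signal was 62.1 and 60.3 in WT LSK and 68.6 and 58.3 in Ripk3-/- LSK, a log2 fold change of 0.05 (limma adjusted p = 0.942). Its libraries overlapped and it did not move with Apex1. A processed copy of Apex1 with 91.6% identity over 513 bases is annotated, has no row among the gene names, and could have drawn or lent reads, so the Apex1 level is uncertain to that extent.

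The 120 bases before the RefSeq start of Apex1 are shown because this gene carries the genotype result, with the CCAAT box in capitals (RefSeq, GRCm38.p6).
Apex1, chr14:50924829-50924948 (+ strand): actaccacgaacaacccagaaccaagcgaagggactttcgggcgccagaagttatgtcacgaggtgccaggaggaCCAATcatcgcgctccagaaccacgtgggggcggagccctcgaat
The box is a description of these letters only and no factor was measured.

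**Figure D1:**
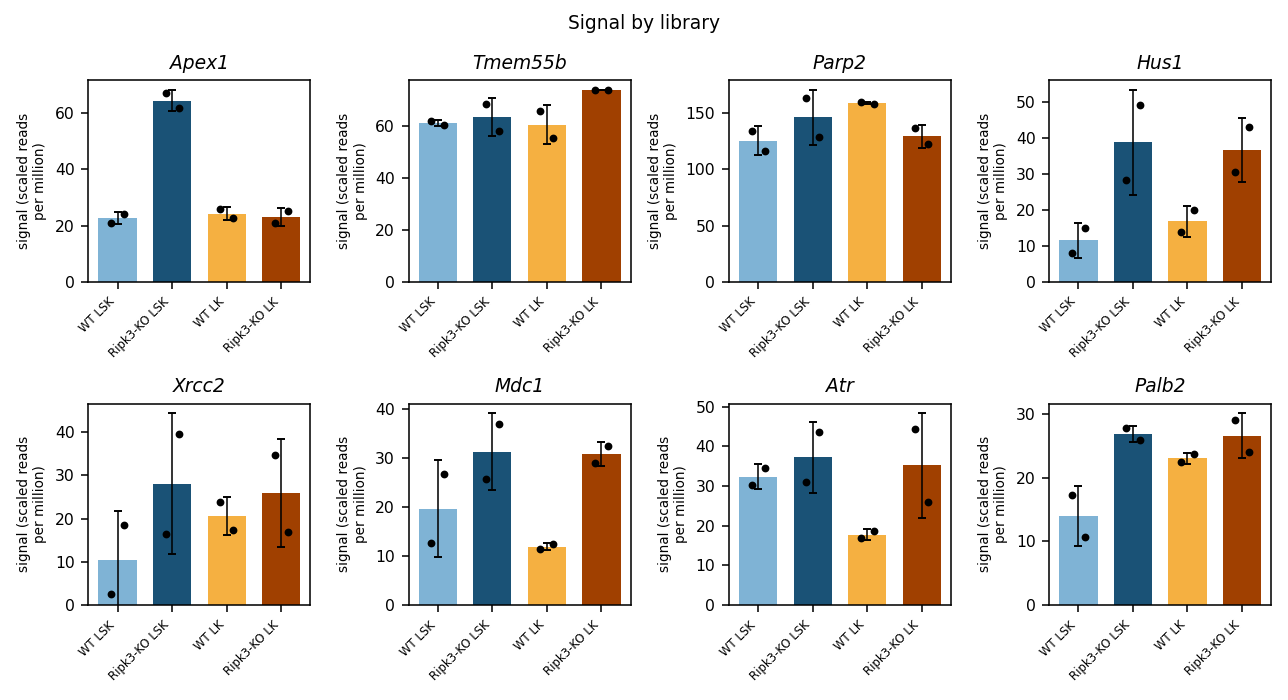
Signal (reads scaled to library size, y axis from 0) in each group for Apex1, Parp2, Xrcc2, Mdc1, Atr and Palb2, the exon-sharing neighbour Tmem55b, and Hus1, a further repair gene. Bars are group means, error bars SD (n = 2) and points the libraries; Apex1 stands at 67.3 and 61.9 in Ripk3-/- LSK and between 20.8 and 25.8 elsewhere.

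The sensor and checkpoint kinases were measured in all libraries, and none passed the test for genotype. Atm, the kinase that answers double-strand breaks, had a signal of 38.8 and 40.1 in WT LSK and 46.5 and 47.2 in Ripk3-/- LSK, and of 20.3 and 18 in WT LK and 34.8 and 20.4 in Ripk3-/- LK. The Ripk3-/- libraries lay above the WT libraries in both populations, by log2 fold changes of 0.24 ± 0.33 and 0.46 ± 0.33 that are of the size of their errors. Atr, the kinase that answers stalled forks, had a signal of 16.8 and 18.7 in WT LK and 44.5 and 25.9 in Ripk3-/- LK. These did not overlap, and the log2 fold change of 0.90 ± 0.35 had a limma adjusted p of 0.537. In LSK cells Atr was 30.2 and 34.6 in WT and 30.9 and 43.6 in Ripk3-/-, and the groups overlapped. For Chek1 and Chek2, the checkpoint kinases below Atr and Atm, the fold changes were 0.21 and 0.47 in LSK and 0.16 and 0.12 in LK on the log2 scale.

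Among the mediators on chromatin, Mdc1, the scaffold that binds phosphorylated H2ax, had the largest difference in LK cells. Mdc1 signal was 11.3 and 12.4 in WT LK and 29.0 and 32.4 in Ripk3-/- LK, which do not overlap. The log2 fold change was 1.30 ± 0.40 (95% interval 0.47 to 2.13) and its limma adjusted p was 0.27. In LSK cells Mdc1 was 12.6 and 26.6 in WT and 25.7 and 36.8 in Ripk3-/-, where the first Ripk3-/- library fell below the second WT library. Averaged over both populations its log2 fold change was 1.01 ± 0.28, with an adjusted p of 0.0785 by limma, 0.128 by edgeR and 0.0378 by DESeq2, so that only the last tool called it.

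Rnf8, a ubiquitin ligase at breaks, had a signal of 64.0 and 30.8 in WT LSK and 91.6 and 69.6 in Ripk3-/- LSK. These did not overlap, and the log2 fold change of 0.83 ± 0.30 had a limma adjusted p of 0.145. Without the first WT LSK library Rnf8 passed the test (log2 fold change 1.35, adjusted p = 0.0466), and without the second it was 0.32 (adjusted p = 0.603). H2afx, the histone that is phosphorylated at breaks, was 246 and 311 in WT LSK and 226 and 195 in Ripk3-/- LSK, a log2 fold change of −0.40 ± 0.20 (adjusted p = 0.29). Trp53bp1, which shields broken ends from resection, and Rnf168, a second ubiquitin ligase, differed by 0.23 and 0.12 in LSK and by 0.36 and 0.65 in LK on the log2 scale.

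The MRN genes varied little. Rad50, the subunit that tethers ends, had a signal of 96.1 and 122 in WT LSK and 105 and 124 in Ripk3-/- LSK, and of 90.6 in both WT LK libraries and 95.8 and 96.4 in Ripk3-/- LK. Its log2 fold change was 0.08 ± 0.22 in each population. Mre11a, the nuclease, and Nbn, the subunit that binds Atm, had log2 fold changes between −0.14 and 0.20, none past the test.

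In homologous recombination 7 of 8 genes had a fold change above 0 in LSK cells, with a median of 0.55 on the log2 scale, and none passed the test. Over all tested genes 50.6% lay below 0, with a median of −0.01. Xrcc2, a homologous recombination gene of low level, had the largest fold change of the 42 genes in LSK cells. Its signal was 2.58 and 18.4 in WT LSK and 16.6 and 39.6 in Ripk3-/- LSK. The groups overlapped, the WT libraries lay more than 2-fold apart, and the log2 fold change of 1.68 ± 0.60 (adjusted p = 0.144) ran from 0.46 to 2.90 as single libraries were left out. Palb2, which links Brca1 to Brca2, was 17.3 and 10.7 in WT LSK and 27.8 and 26.0 in Ripk3-/- LSK, without overlap, for 0.93 ± 0.37 (adjusted p = 0.187). Brca2, the partner of Palb2 in strand exchange, was 32.7 and 35.6 in WT LSK and 53.1 and 64.2 in Ripk3-/- LSK, also without overlap, for 0.76 ± 0.30 (adjusted p = 0.183). Xrcc3, which acts late in the pathway, went the other way, with 39.0 and 84.8 in WT LSK and 57.6 and 18.4 in Ripk3-/- LSK, with overlapping libraries and −0.80 ± 0.40 (adjusted p = 0.295). Rad51c, another gene of low level, had a signal of 1.22 and 5.04 in WT LK and 9.77 and 3.66 in Ripk3-/- LK. Its groups overlapped, and 0.95 ± 0.67 on the log2 scale is not separated from the spread of its replicates.

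Non-homologous end joining showed no called gene for genotype. Lig4, the ligase of this pathway, was the lowest of the 42 genes and had 7 reads in its thinnest library. Its signal was 4.97 and 0.725 in WT LSK and 7.15 and 3.52 in Ripk3-/- LSK, and 1.49 and 2.44 in WT LK and 4.88 and 3.66 in Ripk3-/- LK. The LSK groups overlapped and the LK groups did not, and with log2 fold changes of 0.92 ± 0.67 and 0.84 ± 0.67 both fell short of the test (limma adjusted p = 0.496 and 0.902). Prkdc, the DNA-dependent protein kinase, was 53.8 and 46.7 in WT LSK and 36.2 and 30.3 in Ripk3-/- LSK, below WT without overlap, for −0.58 ± 0.32 (adjusted p = 0.337). In LK cells Prkdc differed by 0.31 ± 0.32, with overlapping groups. Xrcc5 and Xrcc6, the Ku subunits, had log2 fold changes of −0.17 and −0.01 in LSK and 0.16 and −0.14 in LK.

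Pms2, a mismatch repair endonuclease, was 26.5 and 17.8 in WT LK and 36.0 and 35.2 in Ripk3-/- LK, without overlap, for 0.69 ± 0.34 (adjusted p = 0.76). Its LSK groups overlapped. Msh6, which recognises mismatches, differed by 0.19 ± 0.21 in LSK and −0.01 ± 0.21 in LK. The remaining base excision and single-strand break genes included Parp1, the main poly(ADP-ribose) polymerase, at 187 and 200 in WT LSK and 220 and 163 in Ripk3-/- LSK, whose fold change was −0.03 ± 0.19. Xrcc1, the scaffold of this pathway, was 64.1 and 99.7 in WT LSK and 116 and 121 in Ripk3-/- LSK, without overlap, for 0.57 ± 0.23 (adjusted p = 0.204).

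Crosslink repair held no called gene for genotype, though Fanca and Fancd2 did not overlap in LSK cells. Fanca, a subunit of the Fanconi core complex, was 17.4 and 14.9 in WT LSK and 36.1 and 23.0 in Ripk3-/- LSK, for 0.80 ± 0.34 (adjusted p = 0.216). Fancd2, which is ubiquitinated by that complex, was 10.8 and 16.6 in WT LSK and 19.9 and 21.4 in Ripk3-/- LSK, for 0.59 ± 0.35 (adjusted p = 0.386). Fancc, Fanci and Ercc1 had log2 fold changes of −0.34 to −0.01 in LSK. The RecQ helicases Blm and Wrn differed by −0.14 and 0.24 in LSK and by 0.44 and 0.39 in LK.

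Counted over libraries, 12 of the 42 genes had non-overlapping genotype groups in LSK cells, 9 of them higher and 3 lower in Ripk3-/-, where 44.6% of all tested genes did not overlap. The count was again 12 in LK cells (10 higher, 2 lower) against 40.0% of all tested genes. Both shares are below the background. The median log2 fold change of the 42 was 0.19 in LSK cells, beside −0.01 over all genes, and 0.10 in LK cells, beside 0.01. The LSK median fell to 0.06 under quantile normalization.

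In LK cells 0 of 42 genes passed limma, where 0.473% of 13949 genes were called (edgeR 0.43%, DESeq2 1.27%). At an unadjusted p under 0.05 there were 2 (Mdc1 and Atr), beside 6.56% of all genes, and edgeR and DESeq2 also called 0. In LSK cells 7 of 42 had an unadjusted p under 0.05, beside 17.9% of all genes. For the difference of the genotype effects between LSK and LK, 0 of 42 passed limma, edgeR or DESeq2 and 1 had an unadjusted p under 0.05 (10.1% of all genes), where limma called 0.358% of 15901 genes, edgeR 0.34% and DESeq2 0.975%. For the effect averaged over LSK and LK, limma and edgeR called 0 and DESeq2 called Mdc1, where 1.64% of all genes were called by limma, 1.31% by edgeR and 3.31% by DESeq2. At an unadjusted limma p under 0.05 there were 8 of the 42, beside 13.6% of all genes. The 95% interval of the log2 fold change lay wholly within −1 and 1 for 22 of the 42 genes in LSK cells (29.3% of all genes) and for 29 in LK cells (41.05% of all genes). For the rest, 20 and 13, the interval reached past a 2-fold change in at least one direction.

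**Figure D2:**
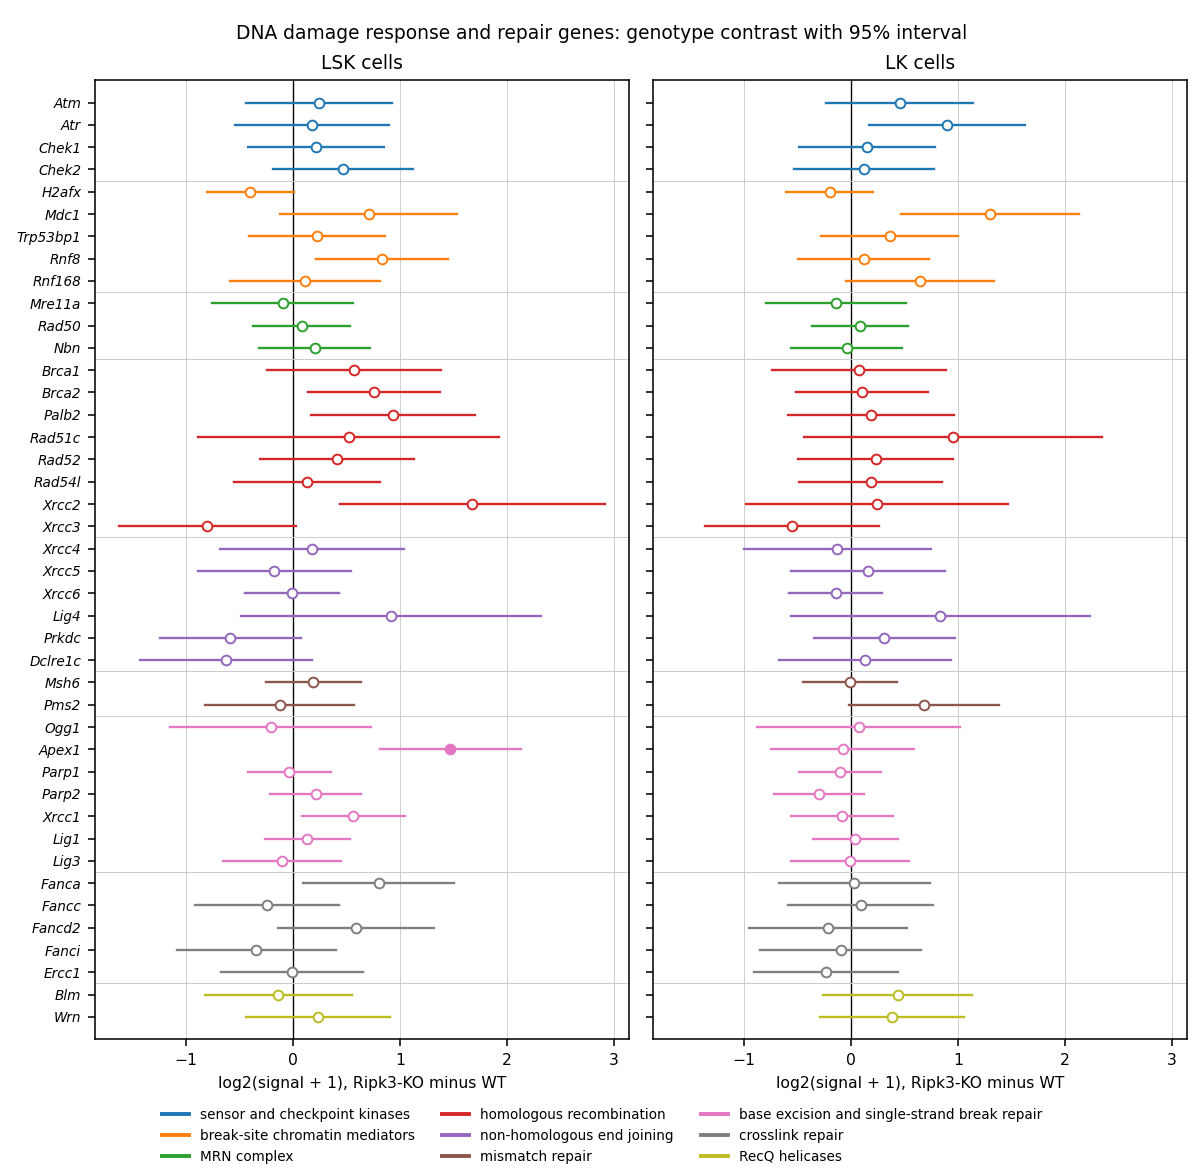
Difference in log2(signal + 1), Ripk3-/- minus WT, for the 42 genes in LSK (left) and LK (right), coloured by role. Circles are limma estimates, filled where the adjusted p is under 0.05, and lines are 95% intervals (2 libraries per group). Apex1 in LSK cells is the only filled circle, at 1.47.

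Of 89 further repair genes listed by name, 86 were found. In LSK cells 83 were tested and 2 rose in Ripk3-/- libraries. Of the 83, 63 had a log2 fold change above 0, with a median of 0.26. The lean above 0 was thus not particular to homologous recombination. Hus1, a subunit of the checkpoint clamp, was 8.04 and 15.0 in WT LSK and 28.5 and 49.2 in Ripk3-/- LSK, a log2 fold change of 1.68 (limma adjusted p = 0.0317). In LK cells Hus1 was 13.7 and 19.8 in WT and 30.4 and 43.1 in Ripk3-/-, and averaged over both populations its log2 fold change was 1.38 (adjusted p = 0.0111 by limma and 0.0254 by edgeR). All 4 Ripk3-/- libraries lay above all 4 WT libraries for this gene. Its LSK call was lost with any 1 of the 4 LSK libraries left out (limma adjusted p 0.0644 to 0.229) and was kept in 8 of 18 alternatives. Tdp2, which frees topoisomerase from DNA ends, was 1.29 and 0.207 in WT LSK and 8.36 and 12.1 in Ripk3-/- LSK, a log2 fold change of 2.74 (adjusted p = 0.0213) at 13, 2, 104 and 124 reads. It kept the call in 11 of 18 alternatives, and edgeR called neither gene in LSK cells. In LK cells 0 of 80 further genes passed limma, with 4 at an unadjusted p under 0.05, and edgeR also called 0.

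Genes that act downstream of damage and in the cell cycle were listed for context. Of 25 p53 targets in LSK cells, Ccng1 rose (log2 fold change 1.07, adjusted p = 0.048 by limma and 0.097 by edgeR, which did not call it) while Cdkn1a, the inhibitor of cyclin-dependent kinases, and Plk2 fell, by 1.32 and 1.22 on the log2 scale. Cdkn1a was 366 and 382 in WT LSK and 165 and 135 in Ripk3-/- LSK. Of 23 replication and cycling genes tested in LSK cells, Top2a rose by 0.73 and Ccnb1 fell by 0.82, and edgeR also called these. DESeq2 called 1 as higher and 3 as lower. Over all genes limma called 2.16%, edgeR 1.41% and DESeq2 3.65%. In LK cells Plk2 fell by 2.0. Limma and edgeR called no cycling gene in LK cells, with 3 of 23 at an unadjusted p under 0.05, and DESeq2 called 1 as lower.

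Between the populations the picture was wider. On one common scale for the 8 libraries (CPM from the recovered reads, TMM over all 8), 18 of the 42 genes were lower in LSK-HSPCs than in LK-MPs and none was higher, averaged over genotypes. Over all 15757 genes tested, 34.0% were called and 20.2% were lower in LSK, against which the 18 of 42 are to be read. The median log2 difference of the 42 was −0.47, beside 0.07 over all genes, and 33 of 42 lay below that median. Among genes with a mean CPM of at least 5, the median of all genes was −0.18. By edgeR 14 were lower, all of them among the 18, beside 17.2% of all genes, and none was higher. DESeq2 called 14 lower (18.4% of all genes) and 2 higher, Atm and Xrcc4 (15.1% of all genes). The LSK and LK libraries did not overlap for 12 of the 42, all lower in LSK, beside 16.7% of all genes.

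This result depends on the common scale. With the deposited values, scaled within each population, the median of all genes moved from 0.07 to 0.39 and the calls among the 42 became 6 lower and 6 higher (Apex1, Atm, Rad52, Trp53bp1, Xrcc4 and Xrcc5), while calls over all genes turned from 2164 higher (13.7%) and 3187 lower to 3890 higher (24.5%) and 1473 lower (9.26%). Relative to the median of all genes the 42 stood at −0.53 on the common scale and at −0.50 on the deposited scale. Genes with a mean CPM of at least 5 had a lower median, given above. Beside those genes the offset on the common scale was smaller. Quantile normalization called 6 lower and 1 higher (Atm), beside 12.4% and 11.1% of all genes. Centring each library on its median called 24 lower and none higher, with 1627 higher (10.3%) and 4055 lower (25.7%) over all genes. Blm, Fanca, Fancd2, Parp1 and Rad54l were called lower under each of these 3 scalings.

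Fancd2 and Fanca, of crosslink repair, differed most. Fancd2 was 9.50, 14.5, 17.7 and 18.7 CPM in the LSK libraries (WT, then Ripk3-/-) and 44.2, 55.5, 36.7 and 49.9 CPM in the LK libraries. Every LSK library lay below every LK library, and the log2 difference was −1.59 ± 0.25 (limma adjusted p = 3.10e-05). Fanca was 15.3, 13.1, 32.0 and 20.1 CPM in LSK and 49.8, 49.3, 40.9 and 63.8 CPM in LK, again without overlap, for −1.36 ± 0.24 (adjusted p = 0.000127). The other 3 crosslink genes did not pass.

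Of base excision and single-strand break repair, 5 of 7 genes were lower in LSK. Parp1 was 164, 175, 195 and 142 CPM in LSK and 337, 350, 302 and 343 CPM in LK, a log2 difference of −0.98 ± 0.13 (adjusted p = 5.27e-06), the smallest p of the 42. Lig1, the ligase of replication and long-patch repair, was 133, 168, 184 and 148 CPM in LSK and 281, 248.7, 259 and 289.7 CPM in LK, for −0.77. Lig3, the ligase that works with Xrcc1, was 49.2, 36.4, 37.2 and 41.8 CPM in LSK and 80.4, 68.8, 67.8 and 82.0 CPM in LK, for −0.85. None of these 3 genes overlapped between the populations. Xrcc1 was 56.2, 87.5, 103 and 106 CPM in LSK and 135, 119, 113 and 129.7 CPM in LK, for −0.53. Parp2 was 118, 102, 145 and 113 CPM in LSK and 182, 179, 155 and 140.3 CPM in LK, for −0.46. The highest LSK library of Parp2 reached into the LK range, and Xrcc1 did not overlap. Apex1 was not called. Its WT LSK libraries (18.5 and 21.3 CPM) lay below the LK range and its Ripk3-/- LSK libraries (59.6 and 54.2 CPM) above it.

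In homologous recombination 4 of 8 genes were lower in LSK. Rad54l, a motor protein that acts in strand invasion, was 35.7, 89.3, 81.7 and 47.2 CPM in LSK and 121, 102, 112 and 144 CPM in LK, for −0.99 ± 0.23 (adjusted p = 0.0018) and without overlap. Brca1, Palb2 and Xrcc3 had log2 differences of −0.86, −0.70 and −0.86 (adjusted p = 0.0189, 0.0426 and 0.0195), and edgeR called none of these 3. Brca1 was 22.7, 13.8, 43.0 and 16.7 CPM in LSK and 44.7, 34.5, 41.4 and 42.3 CPM in LK, so that 1 Ripk3-/- LSK library reached the LK range. Palb2 was 15.2, 9.37, 24.6 and 22.8 CPM in LSK and 25.6, 26.7, 33.1 and 27.6 CPM in LK, without overlap. Xrcc3 was 34.3, 74.5, 51.1 and 16.1 CPM in LSK and 86.6, 83.1, 54.5 and 61.7 CPM in LK, and the second WT LSK library reached into the LK range.

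Of the MRN complex, Mre11a and Nbn were lower in LSK and Rad50 was not called (−0.12 ± 0.16). Mre11a was 41.7, 26.1, 38.9 and 24.6 CPM in LSK and 70.2, 50.5, 51.1 and 57.8 CPM in LK, for −0.81. Nbn was 50.9, 43.6, 48.8 and 61.0 CPM in LSK and 86.6, 77.4, 73.8 and 87.2 CPM in LK, for −0.67. Neither gene overlapped between the populations.

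Blm, a RecQ helicase, was 21.2, 22.5, 22.0 and 17.9 CPM in LSK and 42.1, 30.7, 41.2 and 59.2 CPM in LK, for −0.99. Msh6 was 124, 84.9, 132 and 105 CPM in LSK and 183, 175, 178 and 181 CPM in LK, for −0.70. Neither overlapped. Of the mediators, H2afx was 216, 273, 200.1 and 170.2 CPM in LSK and 357, 319, 247 and 355 CPM in LK, for −0.58. Rnf8 was 56.1, 27.0, 81.1 and 60.9 CPM in LSK and 86.1, 82.5, 79.5 and 107 CPM in LK, for −0.74. For both, 1 LSK library reached into the LK range. Limma and edgeR called none of the 4 sensor and checkpoint kinases. Atm stood at 0.54 ± 0.23 (adjusted p = 0.0791 by limma and 0.0486 by DESeq2, which called it higher in LSK) and Atr at 0.11 ± 0.25.

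Of the 6 end joining genes limma called Prkdc, at −0.59 ± 0.22 (adjusted p = 0.0463), and neither edgeR nor DESeq2 did. Prkdc was 47.2, 41.01, 32.05 and 26.5 CPM in LSK and 39.0, 60.2, 45.8 and 81.0 CPM in LK, with both WT LSK libraries inside the LK range. Xrcc4, which holds Lig4, had a log2 difference of 0.67 (adjusted p = 0.0856 by limma and 0.0428 by DESeq2, which called it higher). The Ku subunit Xrcc5 stood at 0.50 and was called by none of the 3 tools. The median over the end joining genes was 0.09, beside −0.78 for homologous recombination and −0.53 for base excision and single-strand break repair. The difference between roles was not tested.

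**Figure D3:**
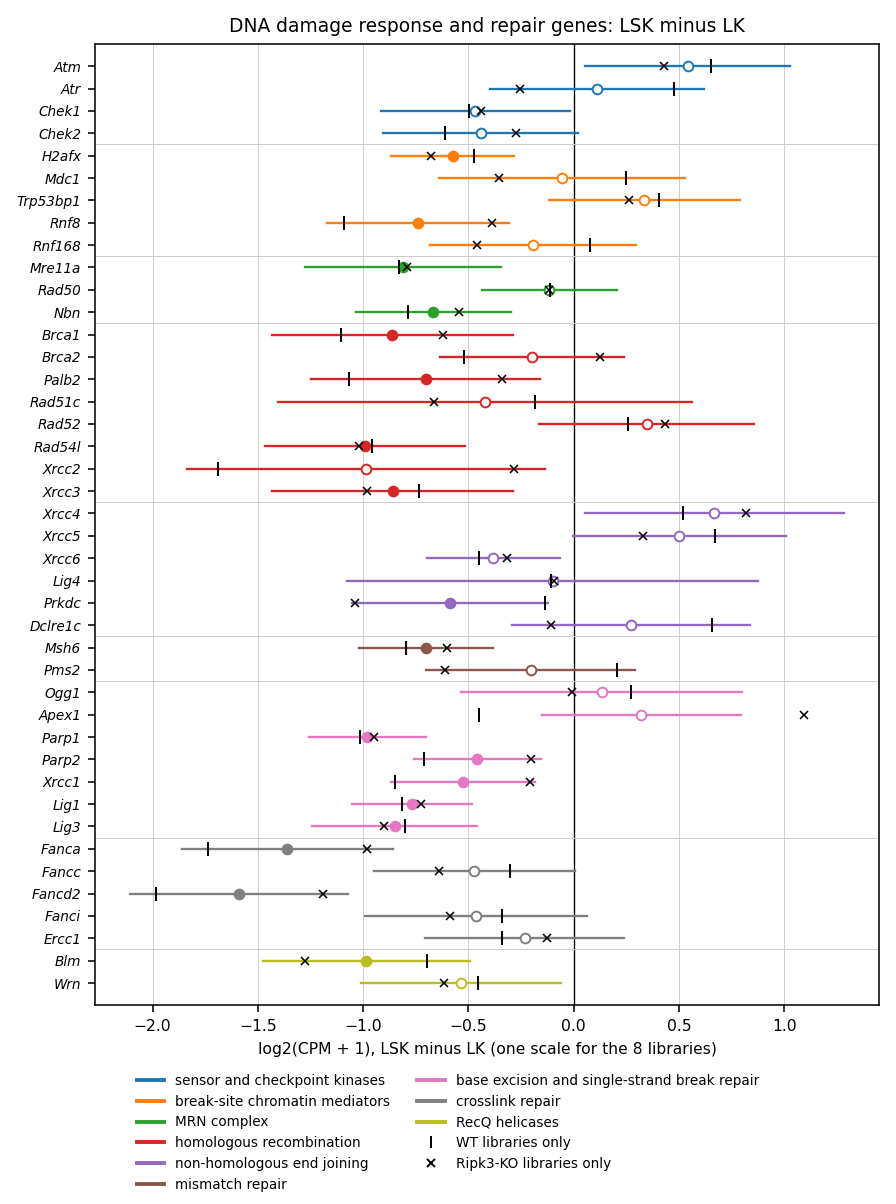
Difference in log2(CPM + 1), LSK minus LK, for the 42 genes, coloured by role. Circles with lines are the limma estimates and 95% intervals over all 8 libraries, filled where the adjusted p is under 0.05; bars and crosses are the estimates from the WT and from the Ripk3-/- libraries alone. The 18 filled circles all lie left of 0, Fancd2 farthest at −1.59.

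The comparison was also made within each genotype. The estimates share no library, but both fits took the spread and the common scale from all 8 libraries. The calls are therefore not independent repeats. In WT libraries 14 of 42 genes were lower in LSK and none higher, where 14.8% of all genes were lower. In Ripk3-/- libraries 9 were lower, where 12.2% of all genes were, and 1 was higher, Apex1, where 7.95% of all genes were. Fanca, Fancd2, Lig1, Lig3, Parp1 and Rad54l were lower in both, and all 14 genes called in WT also had a difference below 0 in Ripk3-/- cells. The share of all genes that agree in this way was not counted. This agreement is therefore not a result about the 42. Parp1 differed by −1.01 in WT and −0.95 in Ripk3-/- cells. Fancd2 differed by −1.98 and −1.19. Rnf8 differed by −1.09 and −0.39 and passed in WT, and Prkdc differed by −0.14 and −1.04 and passed in Ripk3-/- cells. None of the 42 genes passed the test of the difference of the genotype effects. It is also the test of whether the LSK and LK difference depends on genotype.

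The cells of the populations also differed in cycling and lineage genes. Of 23 replication and cycling genes tested, 21 were lower in LSK and none higher, with a median of −1.04, and their summed CPM was 4075 to 4831 in LSK and 8104.5 to 9241 in LK. Of 24 listed, Cdc6 was at 0 in both libraries of each group. Erythroid markers summed to 163 to 216 CPM in LSK and 1217 to 1857 CPM in LK, with none of the 9 found at 0 in both libraries of a group. The part of cycling and of lineage in the lower repair genes was not tested. Of 82 further repair genes tested, 32 were lower in LSK and 4 higher, with a median of −0.48. Each list count here is to be read beside 20.2% of all genes called lower and 13.7% called higher. Among the largest differences below 0 were those of Recql4 (−1.82), Tdg (−1.81), Recql (−1.76) and Eme1 (−1.49), and the 4 called higher were Dntt (3.83), Polk (1.33), Tdp2 (1.31) and Xpa (0.70). By edgeR Polk (adjusted p = 0.126) and Tdp2 (0.0762) were not called. Dntt, the polymerase that adds untemplated bases in lymphocyte receptor genes, was 230 to 433 CPM in LSK and 12.7 to 24.8 CPM in LK. Of 25 p53 targets 8 were higher and 3 lower in LSK.

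**Figure D4:**
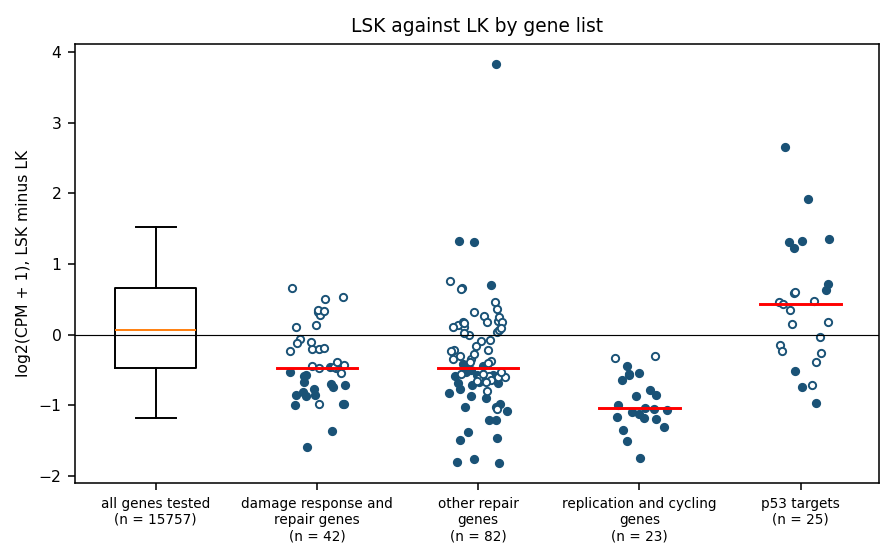
Difference in log2(CPM + 1), LSK minus LK, by gene list, with 1 point per gene (filled where the limma adjusted p is under 0.05) and the list's median as a red line. The box for all 15757 genes tested gives quartiles, with whiskers at the 5th and 95th percentiles. The medians are −0.47 for the 42 damage response and repair genes, −0.48 for other repair genes, −1.04 for replication and cycling genes and 0.44 for p53 targets.

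Promoters were read for the 35 of 42 genes that have a window in RefSeq (GRCm38.p6), 250 bases before the start. The CCAAT box (CCAAT or its complement ATTGG on either strand), a motif common in promoters of cycling genes, was present in 9 of 14 genes (64.3%) that were lower in LSK and had a window, in 9 of 21 (42.9%) that were not called, and in 40.2% of the 10125 tested genes with a window. E2F letters (TTTCGCGC, TTTGGCGC, TTTCCCGC or TTTGCCGC on either strand) were present in 0 of 14 and 4 of 21, and in 3.59% of the tested genes. The cell cycle homology letters (TTTGAA on either strand) were present in 1 of 14 and 0 of 21, and in 13.2%. Fanca, Parp1, Rad54l, Lig3 and Blm were each called lower in LSK in at least 21 of 22 alternatives and have a window, and the 120 bases before the start are given because these genes, chosen after their values were seen, carry the population result. CCAAT boxes are in capitals, 2 in Fanca, 1 in Rad54l and none within these bases of Parp1, Lig3 and Blm.
Fanca, chr8:123318577-123318696 (− strand): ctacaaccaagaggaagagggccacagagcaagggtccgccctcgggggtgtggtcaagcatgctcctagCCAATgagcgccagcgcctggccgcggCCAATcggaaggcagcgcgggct
Rad54l, chr4:116123691-116123810 (− strand): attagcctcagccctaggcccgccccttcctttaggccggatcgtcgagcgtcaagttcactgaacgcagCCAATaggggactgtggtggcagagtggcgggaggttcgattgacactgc
Parp1, chr1:180568771-180568890 (+ strand): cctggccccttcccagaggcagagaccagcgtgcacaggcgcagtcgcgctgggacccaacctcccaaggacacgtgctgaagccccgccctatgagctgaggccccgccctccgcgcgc
Lig3, chr11:82780989-82781108 (+ strand): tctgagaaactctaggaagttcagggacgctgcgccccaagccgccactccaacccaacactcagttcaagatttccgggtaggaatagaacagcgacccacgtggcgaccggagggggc
Blm, chr7:80534999-80535118 (− strand): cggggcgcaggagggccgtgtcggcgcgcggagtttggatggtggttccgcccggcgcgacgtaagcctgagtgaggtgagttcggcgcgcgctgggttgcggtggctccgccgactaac
Rad54l has a second start 1 base away. Lig1, called in 21 alternatives, has 3 windows and is not printed. H2afx, Rad50, Nbn, Xrcc2, Prkdc, Fancd2 and Wrn had no window. The letters were counted as a description, and no factor was measured.

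Per kilobase of transcript, H2afx had the highest signal of the 42 genes in both populations, 177 ± 35.6 per kb in LSK and 203 ± 32.0 per kb in LK (SD over 4 libraries). In LSK cells Parp2 (71.8 ± 10.6), Xrcc6 (57.3 ± 9.32), Lig1 (56.8 ± 7.72) and Parp1 (49.6 ± 6.19) followed. The SD ranges of adjacent genes in this order overlapped, and those of Parp2 and Parp1 did not. In LK cells Parp2 (76.3 ± 9.57), Parp1 (75.6 ± 4.91) and Lig1 (74.6 ± 4.79) followed and were not separated. Lig4 was lowest in both, at 0.814 ± 0.536 and 0.621 ± 0.293 per kb. Of the 42 genes, 24 share exonic bases with another annotated gene, mostly on the opposite strand, among them Lig3 (25.1% of its exonic bases, with Rffl), Rad54l (15.4%, with Lrrc41) and Fanca (10.5%, with Zfp276), and their reads may be split in the same way. Msh6, H2afx and Parp1 have copies of high identity elsewhere in the genome that are not listed, so their levels are uncertain to the extent that reads were shared.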

How the data were processed

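RNA of sorted LSK and LK bone marrow cells was made into stranded mRNA libraries. The submitters' processing notes name TopHat and mm9, and the counting tool, annotation and strand setting are not given in the sources used here. The deposited values are headed FPKM, but dividing by 1 fixed step per library turned 100% of values into whole numbers (tolerance 0.01). They were therefore used as a signal, reads scaled by the authors to library size with TMM factors within each population, and reads were recovered from them.

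Limma 3.58.1 (lmFit, eBayes with trend, R 4.3.3) was fitted to log2(signal + 1) with 4 group means over 8 libraries, keeping genes whose mean signal reached 1. LSK was set against LK on CPM computed from the recovered reads with TMM over all 8. All tests were two-sided and adjusted over all genes tested (Benjamini-Hochberg), and a call was an adjusted p under 0.05. With 2 libraries against 2, an exact permutation test cannot go below 0.333. Alternatives were edgeR 4.0.16 (quasi-likelihood) and DESeq2 1.42.0 on recovered reads, quantile normalization, a pseudocount of 0.1, and a minimum mean of 5 or none. Others were DESeq2 size factors, no trend, a replicate block, each population alone, the deposited scale and each library left out. LSK was also set against LK within each genotype, with the spread and the scale from all 8 libraries. Median centring and a crossed block were added after seeing the data. The scripts were tested on simulated data.

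The 42 genes and the lists were chosen with earlier results of these data known. Library values are given for genes called in any contrast, the 5 with the largest fold change in each genotype contrast, and at least 1 per role. Every other gene of the 42 could be named with its values. Of other lists, called genes were named, at most 5 per list, and 1 gene that this rule would name is not reported here. Positions are from GENCODE M21 (GRCm38) and are not those of mm9. No molecular identifiers are described for these libraries.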

Additional observations from a re-analysis of the deposited data

How the results depend on the processing

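No called result changed direction under the alternatives run. Of the 42 genes, the LSK genotype call went from 1 to 0 without a trend. With any single LSK library left out the Apex1 call was lost, as given above, at log2 fold changes of 1.38 to 1.57. The log2 fold change of Rnf8 in LSK ran from 0.32 to 1.35 with single libraries left out. The averaged genotype count rose from 0 to 1 with DESeq2 (Mdc1), and was 0 to 1 with single libraries left out (Mdc1 without the second WT LSK library, Xrcc3 as lower without the first Ripk3-/- LSK library). The population count of 18, all lower in LSK, became 7 under quantile normalization (6 lower, Atm higher) and 9 without a trend, all lower. It was 10 for the contrast within Ripk3-/- (9 lower, Apex1 higher) and 12 on the deposited scale (6 lower and 6 higher). The median log2 fold change of the 42 in LSK went from 0.19 to 0.061 under quantile normalization and ran from 0.11 to 0.26 with single libraries left out. The averaged median of 0.17 ran from 0.086 to 0.18 with single libraries left out. The median difference of genotype effects, which has no test, turned its sign, from 0.05 to −0.10 under quantile normalization and ran from −0.15 to 0.21 with single libraries left out. The population median went from −0.47 to −0.29 under quantile normalization, −0.11 on the deposited scale and −0.61 with median centring, and ran from −0.54 to −0.41 with single libraries left out.

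Of further repair genes in LSK, 2 calls became 1 with a pseudocount of 0.1, 0 with no filter, 1 without a trend, 0 with edgeR, 6 with DESeq2 and 1 with the population alone (Dntt, with Hus1 and Tdp2 both lost), and 0 to 2 with single libraries left out. The averaged count of 1 became 0 with no filter or no trend and 2 with DESeq2, and was 0 to 1 with single libraries left out, and the count for the difference of genotype effects was 0 to 1 (Paxip1 without the second WT LK library). The population count of 36 became 17 under quantile normalization, 19 without a trend, 23 on the deposited scale (11 higher, 12 lower), 22 in WT and 14 in Ripk3-/- libraries alone, and 22 to 35 with single libraries left out. The cause was not tested.

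Deviations of same-numbered libraries correlated at −0.145 to 0.0510 over 6 pairs of groups, lowest between Ripk3-/- LSK and Ripk3-/- LK. This cannot show whether LSK and LK libraries came from the same mice, so pairing is not known. With a replicate block the calls among the 42 were 1 in LSK, 0 in LK and 17 between populations. A fit to the Ripk3-/- libraries alone, with a replicate block and crossed numbers, gave 13 calls between populations. The fit that gave 10 for Ripk3-/- used all 8 libraries and no block. The part of crossing in this change therefore cannot be told apart. The thinnest library of Lig4 held 7 reads.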
